A study of Mus musculus with 4 samples.

Results

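The nuclear genes for the protein subunits of the mitochondrial respiratory chain and ATP synthase were compared between mouse CD4+ T cells cultured with and without dopamine. The genes were chosen by symbol: the numbered Ndufa, Ndufb, Ndufc, Ndufs and Ndufv genes with Ndufab1 for complex I, Sdha to Sdhd for complex II, the Uqcr genes with Cyc1 for complex III, Cycs for cytochrome c, Cox4 to Cox8 for complex IV and Atp5 for complex V. Of 38282 genes in the tables, 87 protein-coding genes met this rule, and 11 pseudogenes with such names were left out. Complex I has 38 of the 87 genes, complex II has 4, complex III has 9, complex IV has 18, complex V has 17 and cytochrome c is 1 gene. A mean level of at least 1 FPKM, the filter for testing, was reached by 81 of them.

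The libraries came from naive CD4+ T cells of the spleen of C57BL/6 mice, cultured under the Th0 condition alone (Th0) or under the same condition with dopamine (Th0+Dopa) and collected on day 4. Each group has 2 libraries, numbered 2 and 3, and the question is how transcript levels differ in the presence of dopamine. Th0 culture is activation without the cytokines that direct T helper cells to one lineage. The age and number of the mice, and when and at what dose dopamine was added, were not given in the sources used here. No source states that the libraries of a group were made from different cultures or animals. The p-values therefore cover only the spread between the differences of these samples, taken between same-numbered libraries, with variance partly borrowed from other genes. That spread may be technical. Values are FPKM, the fragments of a transcript scaled by its length and by the fragments mapped in the library. This scaling is meant to let levels be compared between genes, but some values are uncertain, as given below. The libraries numbered 2 are in one table and those numbered 3 in another, so differences were taken within a pair, Th0+Dopa 2 minus Th0 2 and Th0+Dopa 3 minus Th0 3.

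The respiratory chain passes electrons from NADH, through complex I, or from succinate, through complex II, to ubiquinone. Complex III passes them on to cytochrome c, and complex IV passes them to oxygen. Complexes I, III and IV pump protons across the inner mitochondrial membrane, and complex V, the ATP synthase, makes ATP as the protons return. Most subunits are made from nuclear genes and imported, while a small set at the core of complexes I, III, IV and V is made from mitochondrial DNA. Complex II is made from nuclear genes alone. Activated T cells need respiration as well as glycolysis to leave the resting state and divide.

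Library totals and cell markers moved with the treatment. FPKM summed to 687066 in Th0 2, 715110 in Th0 3, 880583 in Th0+Dopa 2 and 794873 in Th0+Dopa 3. There were 17833 and 19177 genes with FPKM above 0 in Th0 but 15974 and 16276 with dopamine (libraries 2 and 3), and small RNA took 21.7% and 22.0% of the FPKM in Th0 and 26.5% and 22.6% with dopamine. The 10 T cell markers were all detected, Cd4 at 122 and 123 FPKM in Th0 and 115 and 120 FPKM with dopamine, and their summed level was 1864 and 1848 FPKM in Th0 (libraries 2 and 3) and 1898 and 1772 FPKM with dopamine, where 3 rose and 1 fell. Markers of macrophages and dendritic cells summed to 225 and 305 FPKM in Th0 but 27.7 and 29.7 FPKM with dopamine, and 9 of 10 fell. Markers of granulocytes, mast cells and basophils summed to 434 and 576 FPKM in Th0 but 48.3 and 44.3 FPKM with dopamine, and 7 of the 7 tested fell. The 4 B cell markers summed to between 2.45 and 4.75 FPKM, the 4 CD8 T and NK cell markers to between 3.95 and 6.39 FPKM with Ncr1 at 0 in every library, and the 3 red cell markers to at most 1.76 FPKM. In bulk RNA, fewer cells of a type and less RNA per cell cannot be told apart, and the part of these marker changes in the results on the subunits was not tested.

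With dopamine, 27 of the 81 tested subunit genes rose and none fell. A call here is an adjusted p under 0.05 in limma on log2(FPKM + 1) with the pair as a block, after Benjamini-Hochberg adjustment over all 11423 genes tested, of which 717 (6.28%) were called higher and 501 (4.39%) lower. Beside the count of 0 lower subunits stand 51 subunits with an unadjusted p under 0.05 in either direction, as had 3177 of the 11423 genes tested. Among protein-coding genes of mean FPKM at least 50, the range in which 73 of the subunits lie, 13.8% were called higher and 7.52% lower. Of those 73 subunits 26 were called higher and 0 lower. An unadjusted p under 0.05 was found for 48 of the 73 and for 803 of the 1809 protein-coding genes in that range. The median log2 difference of the 81 subunits was 0.37, against 0.03 over all genes tested. In both pairs 61 subunits were higher with dopamine and 9 were lower, where 37.6% and 32.3% of all genes tested were. Both dopamine libraries lay above both Th0 libraries for 59 subunits and below both for 7, against 31.4% and 25.6% of all genes tested.

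The calls rest on a small design. When any 1 of Th0 2, Th0 3, Th0+Dopa 2 or Th0+Dopa 3 was left out, 1 group kept a single library and the fit had no block. Those fits give effect sizes only, with a subunit median log2 difference of 0.34, 0.30, 0.19 and 0.50 in that order. No subunit passed when limma's variance trend was left out (smallest adjusted p = 0.0511), where 106 of all genes tested were called higher and 150 lower. When all libraries were scaled to a common FPKM sum, 14 subunits were higher and 7 lower, with 3.29% of all genes tested higher and 9.31% lower. That scaling moved the median of all genes from 0.03 to −0.20 and that of the subunits from 0.37 to 0.11. The subunits lay 0.34 above the median gene with the deposited values and 0.31 above it after scaling. Such scaling divides each library by 1 factor and moves most genes nearly alike, so it could hardly change this distance and does not test it. That distance was 0.18 without Th0+Dopa 2, 0.50 without Th0+Dopa 3 and 0.21 after a correction for GC content and length, and the subunit median itself was 0.19, 0.50 and 0.22. The 7 called lower under the common sum were Atp5h, Atp5j, Atp5l, Cox7b, Cycs, Ndufv3 and Sdha. Without the pair as a block, 7 subunits were called higher. Samples with the same number did not deviate together (Pearson's r of 0.0869 over all genes tested).

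**Figure D1:**
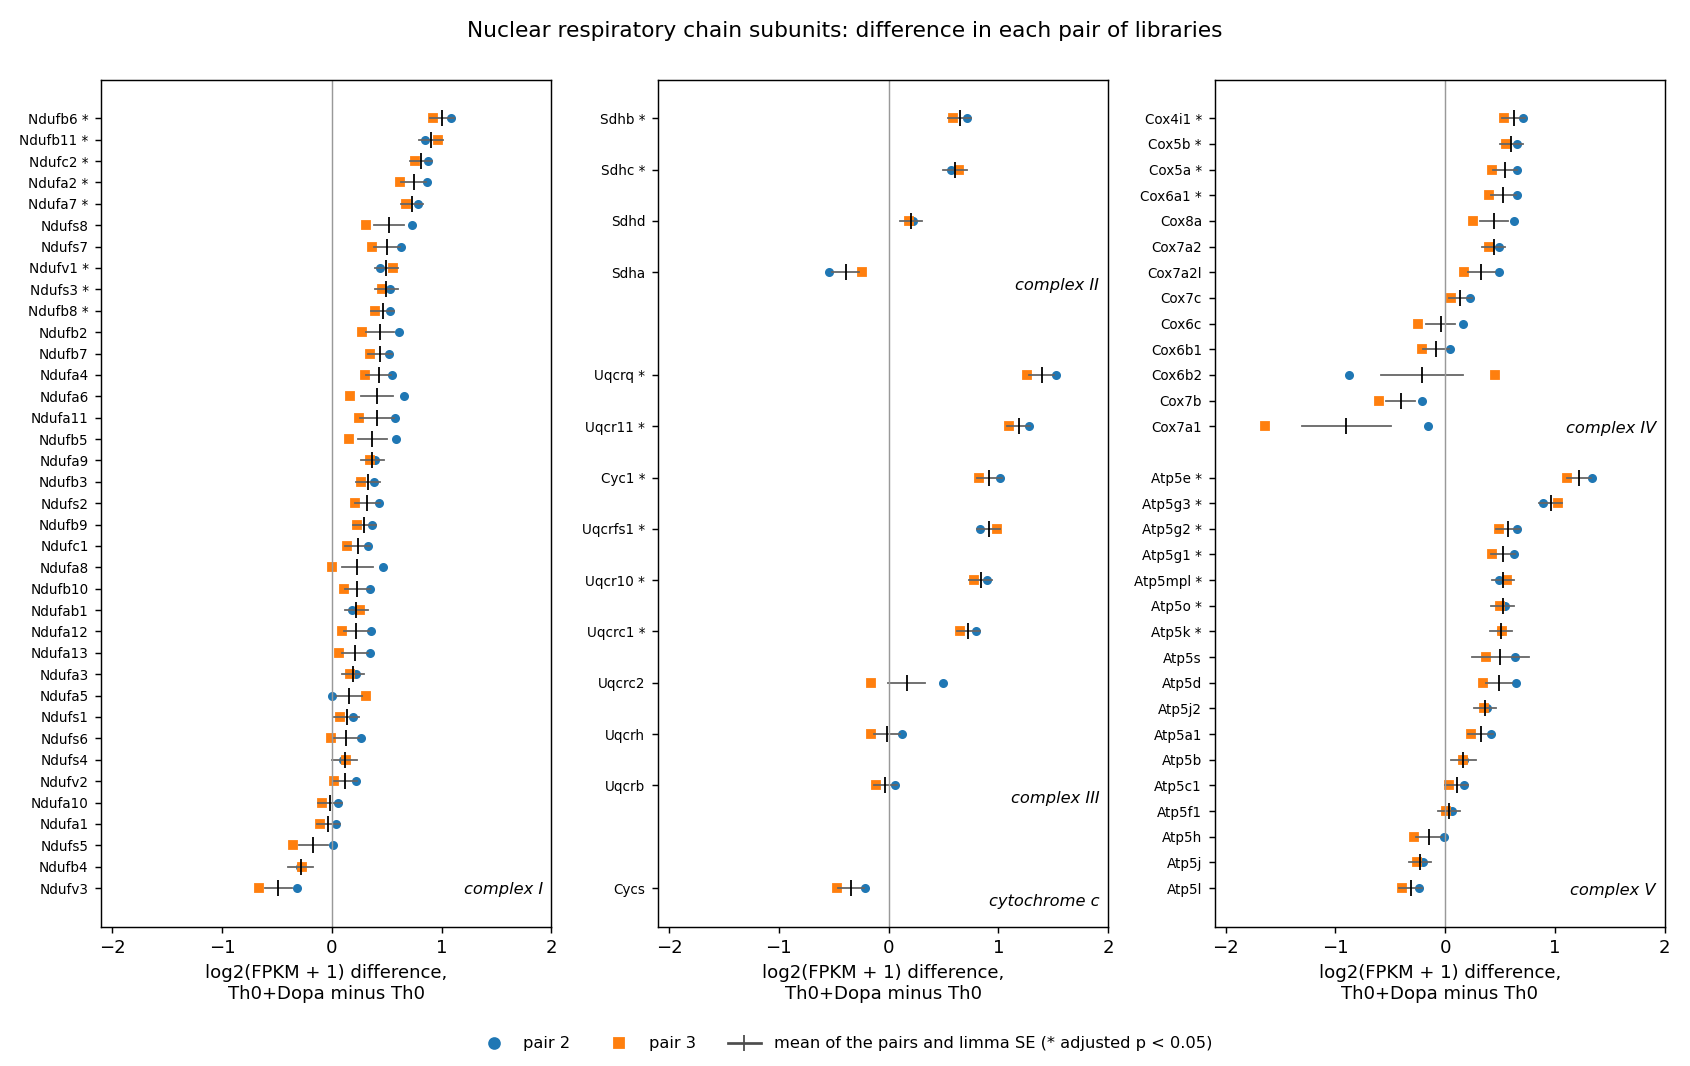
Difference in log2(FPKM + 1), Th0+Dopa minus Th0, of each of the 81 tested subunits, grouped by complex; circles are pair 2, squares pair 3, and ticks with lines the mean of the pairs with its limma standard error. Asterisks mark the 27 called higher; 6 of the 9 complex III genes stand at 0.73 or above and the other 3 near 0, in a set where scaling to a common sum lowers the median subunit from 0.37 to 0.11.

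The promoters of 4 subunits that the results below return to are printed here, as examples of members that rose together and of one that did not. The windows run from 250 bases before to 50 bases after a RefSeq transcript start, on the gene's strand, in build GRCm38.p6. The search covered both strands for 3 motifs, named for factors known to bind promoters of respiratory genes: NRF1 (GCGCA, then any base, then GCGC), ETS, the family of GABPA (CCGGAAG), and YY1 (AAGATGGC). No motif contains another, and capitals mark each match. All 4 windows hold a match, while those of Uqcr10, Uqcrfs1 and Ndufb11, which also rose, hold none.
Uqcr11, chr10:80406772-80407071, minus strand, with an ETS match: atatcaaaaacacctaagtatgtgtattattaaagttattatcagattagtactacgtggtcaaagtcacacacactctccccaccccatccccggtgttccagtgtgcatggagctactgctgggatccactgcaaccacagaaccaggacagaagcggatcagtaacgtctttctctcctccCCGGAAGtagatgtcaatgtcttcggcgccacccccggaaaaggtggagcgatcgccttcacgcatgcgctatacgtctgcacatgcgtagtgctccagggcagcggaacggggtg
Atp5e, chr2:174464052-174464351, minus strand, with an ETS match read on the opposite strand: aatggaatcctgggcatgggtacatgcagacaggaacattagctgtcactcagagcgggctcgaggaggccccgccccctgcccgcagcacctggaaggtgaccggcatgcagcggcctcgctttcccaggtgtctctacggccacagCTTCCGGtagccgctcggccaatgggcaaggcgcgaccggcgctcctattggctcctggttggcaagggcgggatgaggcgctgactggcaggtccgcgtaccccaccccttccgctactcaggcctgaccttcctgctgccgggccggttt
Uqcrc1, chr9:108936398-108936697, plus strand, with NRF1 matches: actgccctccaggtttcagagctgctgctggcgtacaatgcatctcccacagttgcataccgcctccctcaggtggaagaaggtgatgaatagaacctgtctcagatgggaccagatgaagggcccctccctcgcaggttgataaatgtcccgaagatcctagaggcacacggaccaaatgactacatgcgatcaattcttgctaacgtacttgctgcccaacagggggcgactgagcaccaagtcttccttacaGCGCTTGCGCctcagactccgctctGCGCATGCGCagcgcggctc
Sdha, chr13:74350191-74350490, minus strand, with NRF1 matches: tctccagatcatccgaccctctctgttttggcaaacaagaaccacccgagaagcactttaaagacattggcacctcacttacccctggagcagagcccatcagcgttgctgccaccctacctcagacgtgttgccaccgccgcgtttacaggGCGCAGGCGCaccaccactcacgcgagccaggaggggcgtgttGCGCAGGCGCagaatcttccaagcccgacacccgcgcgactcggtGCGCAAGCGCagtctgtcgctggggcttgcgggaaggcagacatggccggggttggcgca

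RefSeq windows matched 69 of the 87 subunits by symbol, with 74 promoters between them. The NRF1 motif stood in 24.3% of the subunit promoters and in 4.60% of all 32851 promoters in the table. Shares for the ETS motif were 21.6% and 8.86%, and those for YY1 were 13.5% and 2.75%. An NRF1 match was present for 6 of 21 matched subunits that rose and for 11 of 46 matched subunits that were tested and not called. ETS matches were present for 7 of the 21 and 9 of the 46, and YY1 matches for 1 of the 21 and 9 of the 46. Sdha, with the NRF1 matches shown above, was not called and read lower with dopamine in both pairs. A match is a run of letters, and binding was not measured.

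Complex III, the cytochrome bc1 complex, had the highest share of genes called, although the complexes were not tested against each other. Of its 9 genes 6 rose and the other 3 did not pass, and the median log2 difference of the 9 was 0.84. The genes that rose include both nuclear-encoded electron-carrying subunits, cytochrome c1 and the Rieske iron-sulfur protein, and 3 small accessory subunits. All 6 were also called after scaling to a common FPKM sum and after a correction for GC content and transcript length. Without the pair as a block 4 of the 6 were called, and without limma's variance trend 0 were. Fits with a library left out kept a single library in 1 group and give no calls here.

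Uqcrq encodes a small subunit that sits beside cytochrome b, and lies on chromosome 11 from 53427922 to 53430831 (mm10). Its level was 108 FPKM in Th0 2 and 102 in Th0 3, and 313 in Th0+Dopa 2 and 246 in Th0+Dopa 3. Both dopamine libraries stood far above both Th0 libraries. The log2 difference was 1.39 ± 0.11 (SE, 2 pairs), with adjusted p = 0.00298 in limma, the largest among the subunits. Uqcr11, on chromosome 10 from 80402997 to 80406830, encodes one of the smallest bc1 subunits. It read 129 and 104 FPKM in Th0 and 313 and 223 FPKM with dopamine, again without overlap, a log2 difference of 1.19 ± 0.11 (SE, adjusted p = 0.00370). Uqcr10, another small subunit on chromosome 11 (4701973 to 4704342), was at 303 and 250 FPKM in Th0 and at 567 and 430 FPKM with dopamine. Its log2 difference was 0.84 ± 0.11 (SE, adjusted p = 0.00979).

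Cyc1 encodes cytochrome c1, which hands electrons to cytochrome c, and lies on chromosome 15 from 76343523 to 76346260. Its 58.2 and 51.5 FPKM in Th0 compare with 119 and 91.6 FPKM with dopamine (log2 difference 0.92 ± 0.11, SE, adjusted p = 0.00885). Uqcrfs1 encodes the Rieske protein, which takes electrons from ubiquinol, and lies on chromosome 13 from 30540308 to 30545362. Levels were 86.8 and 69.7 FPKM in Th0 and 155 and 140 FPKM with dopamine, and this gene was among the few with the larger difference in pair 3 (0.83 in pair 2 and 0.99 in pair 3, adjusted p = 0.00787). Uqcrc1, a core subunit facing the matrix, read 100 and 87.4 FPKM in Th0 and 175 and 138 FPKM with dopamine, a log2 difference of 0.73 ± 0.11 (SE, adjusted p = 0.0148). For these 3 genes too the groups did not overlap.

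The remaining complex III genes did not pass and had opposite signs in the pairs. Uqcrc2, the partner of Uqcrc1 in the core, read 150 and 196 FPKM in Th0 and 212 and 176 FPKM with dopamine. Its log2 difference was 0.17 ± 0.17 (SE, adjusted p = 0.569). Uqcrh, the hinge subunit at the cytochrome c1 surface, was at 431 and 456 FPKM in Th0 and at 469 and 409 FPKM with dopamine. Uqcrb, a small subunit named for binding ubiquinone, was at 220 and 251 FPKM against 229 and 232 FPKM. In these 3 genes the libraries of the groups were interleaved. Levels within the complex drew closer: the SD of log2 levels over the 9 genes was 0.912 in Th0 2 and 1.02 in Th0 3 but 0.738 and 0.728 with dopamine. The SD also fell in complex IV, over 11 of its genes, from 0.606 in Th0 2 and 0.660 in Th0 3 to 0.486 and 0.458 with dopamine. It fell slightly in complex V, and rose in both pairs in complex I and in pair 2 in complex II. These spreads are descriptions, with no test.

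**Figure D2:**
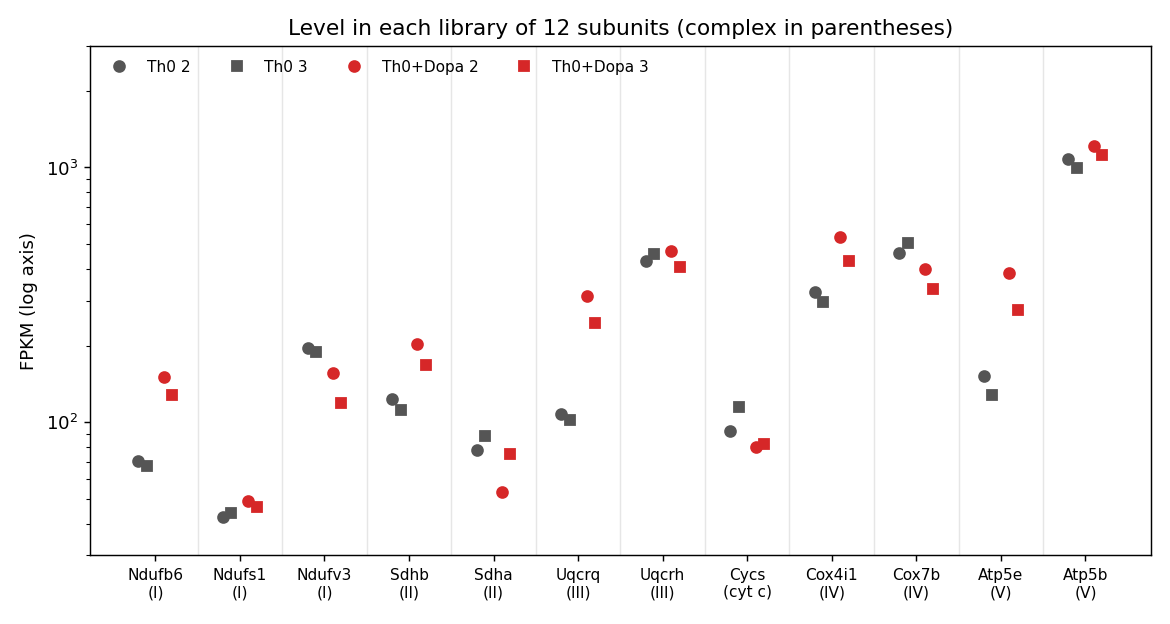
FPKM on a log axis of 12 subunits in each library; gray marks are Th0, red marks Th0+Dopa, circles library 2 and squares library 3. Uqcrq moves from 102 to 108 FPKM in Th0 to between 246 and 313 FPKM with dopamine, Uqcrh stays between 409 and 469 FPKM in all libraries, and Cycs, Cox7b, Sdha and Ndufv3 read lower with dopamine without passing the test.

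In complex V, the ATP synthase, 7 of 17 genes rose, none fell and the median log2 difference was 0.49. The genes that rose were 1 of the 5 subunits of the catalytic F1 head, all 3 genes of the c subunit and 3 of the 9 other genes. After scaling to a common FPKM sum, 2 were called higher (Atp5e and Atp5g3) and 3 lower (Atp5h, Atp5j and Atp5l). Atp5e encodes the epsilon subunit of the central stalk, which turns inside the head, and lies on chromosome 2 from 174461072 to 174464105. Its level was 152 and 128 FPKM in Th0 and 384 and 276 FPKM with dopamine, with both dopamine libraries well above both others. The log2 difference of 1.22 ± 0.11 (SE, adjusted p = 0.00372) ranked after that of Uqcrq among the subunits.

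The head's other genes did not pass. Atp5b, the catalytic beta subunit and the most abundant subunit transcript per length, was at 1080 and 997 FPKM in Th0 and at 1213 and 1117 FPKM with dopamine. Its log2 difference was 0.17 ± 0.12 (SE, adjusted p = 0.403). Atp5a1, the alpha subunit, was at 544 and 472 FPKM in Th0 and at 726 and 556 FPKM with dopamine, and did not pass (adjusted p = 0.131). Atp5d (delta) and Atp5c1 (gamma), which join epsilon in the stalk, had log2 differences of 0.49 (adjusted p = 0.0557) and 0.10 (adjusted p = 0.564). The 3 stalk genes were not tested against each other.

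The c ring, which turns as protons pass, is built from one protein made by 3 genes that differ in their import sequence. Atp5g3 was at 158 and 140 FPKM in Th0 and at 294 and 286 FPKM with dopamine (log2 difference 0.96 ± 0.10, SE, adjusted p = 0.00630). Atp5g2 was at 132 and 105 FPKM in Th0 and at 208 and 148 FPKM with dopamine (0.57 ± 0.11). Atp5g1 was at 198 and 168 FPKM in Th0 and at 307 and 226 FPKM with dopamine (0.53 ± 0.11). All 3 were higher with dopamine in both pairs, without overlap of the groups. In Th0 Atp5g1 had the highest level of the 3 in both libraries, while with dopamine Atp5g3 exceeded it in library 3 only.

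Of the other ATP synthase genes, Atp5mpl, a small membrane subunit, was at 238 and 212 FPKM in Th0 and at 334 and 313 FPKM with dopamine. Atp5o, which encodes the oligomycin sensitivity protein at the top of the outer stalk, was at 235 and 206 FPKM in Th0 and at 343 and 292 FPKM with dopamine. Atp5k, the subunit e that helps ATP synthases to pair, was at 233 and 188 FPKM in Th0 and at 333 and 269 FPKM with dopamine. The log2 differences of these 3 were close together, at 0.53, 0.52 and 0.51, with adjusted p = 0.0336, 0.0334 and 0.0346. At the low end stood Atp5l, subunit g, which partners with subunit e. It read 125 and 112 FPKM in Th0 and 106 and 85.6 FPKM with dopamine, a log2 difference of −0.31 ± 0.11 (SE, adjusted p = 0.126), and was called lower under the common sum (−0.57, adjusted p = 0.0250). Atp5j, coupling factor 6 of the outer stalk, read 181 and 228 FPKM in Th0 and 157 and 191 FPKM with dopamine (adjusted p = 0.209), and was also called lower under the common sum (−0.48, adjusted p = 0.0323). The outer stalk subunits Atp5f1 and Atp5h, at 0.04 and −0.15, the membrane subunit Atp5j2, at 0.37, and the coupling factor Atp5s, at 0.50 from levels of 1.73 to 3.90 FPKM, did not pass. Atp5h was called lower under the common sum (−0.40, adjusted p = 0.0372).

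Complex I, NADH dehydrogenase, had the most genes and a lower share called: 8 of 37 tested rose, none fell, and the median log2 difference was 0.32. Of the 7 nuclear core genes, which carry out the electron transfer, 2 rose and all 7 were higher in both pairs, with a median of 0.49. Of the 30 tested accessory genes, 6 rose and the median was 0.26. Of the 8, 5 were also called after scaling to a common FPKM sum. Those 5 had the largest differences and are accessory genes, and 3 of them (Ndufb6, Ndufb11 and Ndufc2) encode proteins of the membrane arm.

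Ndufb6, on chromosome 4 from 40270591 to 40279421, was at 70.6 and 67.5 FPKM in Th0 and at 151 and 128 FPKM with dopamine. The log2 difference was 1.00 ± 0.11 (SE, adjusted p = 0.00625). Ndufb11, on chromosome X from 20615326 to 20617619, was at 64.3 and 47.8 FPKM in Th0 and at 116 and 94.2 FPKM with dopamine (0.90 ± 0.11, adjusted p = 0.00817). Both were without overlap between the groups. Ndufc2 was at 112 and 93.2 FPKM in Th0 and at 205 and 158 FPKM with dopamine (0.81 ± 0.10, adjusted p = 0.0102). Ndufa2, a small accessory subunit of the matrix arm, was at 87.1 and 71.3 FPKM in Th0 and at 159 and 110 FPKM with dopamine (0.74 ± 0.11). Ndufa7, also of the matrix arm, was at 118 and 97.4 FPKM in Th0 and at 204 and 156 FPKM with dopamine (0.73 ± 0.10). These 5 genes kept their call under the common sum.

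Ndufv1 encodes the core subunit that binds NADH and its flavin. It was at 71.4 and 59.5 FPKM in Th0 and at 97.0 and 87.8 FPKM with dopamine (log2 difference 0.50 ± 0.11, SE, adjusted p = 0.0437). Ndufs3, a core subunit on the path to ubiquinone, was at 67.7 and 61.4 FPKM in Th0 and at 98.2 and 84.8 FPKM with dopamine (0.49 ± 0.10, adjusted p = 0.0420). Ndufb8, an accessory subunit of the membrane arm, was at 174 and 163 FPKM in Th0 and at 253 and 214 FPKM with dopamine (0.46 ± 0.10, adjusted p = 0.0471). These 3 lay just inside the threshold. Just outside it were the core genes Ndufs7, with a log2 difference of 0.50 (adjusted p = 0.0552), and Ndufs8, with 0.52 (adjusted p = 0.0711), both carriers of iron-sulfur clusters. The largest core subunit, Ndufs1, was at 42.6 and 44.1 FPKM in Th0 and at 48.9 and 46.5 FPKM with dopamine, a log2 difference of 0.13 ± 0.11 (SE, adjusted p = 0.493). The complex I genes not described singly did not pass and ranged in log2 difference from −0.17 (Ndufs5) to 0.44 (Ndufb2).

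Ndufv3, an accessory subunit beside the NADH site, had the lowest value in the complex. It read 195 and 189 FPKM in Th0 and 157 and 119 FPKM with dopamine, so all dopamine values lay below all Th0 values. The log2 difference of −0.49 ± 0.12 (SE) missed the threshold (adjusted p = 0.0630), but the gene was called lower after scaling to a common FPKM sum (−0.74, adjusted p = 0.00864) and with GC content and length corrected for (−0.60, adjusted p = 0.0364). Ndufb4, a membrane arm subunit, read 39.4 and 50.6 FPKM in Th0 and 31.9 and 41.6 FPKM with dopamine, with overlapping groups (adjusted p = 0.172). Ndufa4 is counted with complex I by its symbol, though its product is found with complex IV. It was at 310 and 305 FPKM in Th0 and at 453 and 378 FPKM with dopamine (0.43 ± 0.11, adjusted p = 0.0733). Its paralog Ndufa4l2 was at 0 in 3 libraries and at 0.364 FPKM in Th0+Dopa 3.

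Complex II, succinate dehydrogenase, which also works in the citric acid cycle, had 2 genes that rose and 2 that did not pass. Sdhb, the iron-sulfur subunit, was at 123 and 112 FPKM in Th0 and at 202 and 168 FPKM with dopamine (log2 difference 0.65 ± 0.10, SE, adjusted p = 0.0196). Sdhc, a membrane anchor, was at 47.6 and 31.2 FPKM in Th0 and at 71.1 and 49.1 FPKM with dopamine (0.60 ± 0.11, adjusted p = 0.0294). Both rose, and neither was called after scaling to a common FPKM sum (adjusted p = 0.0617 and 0.158). Sdhd, the other anchor, was at 119 and 108 FPKM in Th0 and at 140 and 122 FPKM with dopamine, a log2 difference of 0.21 (adjusted p = 0.247) that became −0.05 under the common sum. Sdha, the flavin subunit that oxidizes succinate, read lower with dopamine, at 78.2 and 88.4 FPKM in Th0 and 53.3 and 74.8 FPKM with dopamine. Its log2 difference was −0.39 ± 0.12 (SE, adjusted p = 0.106), with a call as lower under the common sum (adjusted p = 0.0441). The difference between Sdha and Sdhb was not tested.

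Cytochrome c, the mobile carrier between complexes III and IV, was not called. Cycs, on chromosome 6 from 50562563 to 50566538, was at 92.7 and 114 FPKM in Th0 and at 79.6 and 82.4 FPKM with dopamine, and the groups did not overlap. The log2 difference was −0.34 ± 0.12 (SE, adjusted p = 0.124). Under the common sum it was −0.60 (adjusted p = 0.0237). Cyc1, whose product passes electrons to cytochrome c, rose by 0.92 on the same scale with the deposited values.

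In complex IV, cytochrome c oxidase, 4 of 13 tested genes rose, none fell and the median log2 difference was 0.33. Cox4i1, a regulatory subunit that binds ATP, was at 324 and 297 FPKM in Th0 and at 532 and 430 FPKM with dopamine (0.62 ± 0.11, SE, adjusted p = 0.0260). Cox5b, a zinc-binding subunit, was at 229 and 209 FPKM in Th0 and at 362 and 307 FPKM with dopamine (0.60 ± 0.10, adjusted p = 0.0237). Groups were again apart in both. Cox5a, which faces the matrix, was at 135 and 133 FPKM in Th0 and at 213 and 179 FPKM with dopamine (0.54 ± 0.11, adjusted p = 0.0384). Cox6a1 was at 235 and 210 FPKM in Th0 and at 371 and 277 FPKM with dopamine (0.53 ± 0.11, adjusted p = 0.0438), a difference that was −0.01 after the GC and length correction. Under the common sum Cox4i1 alone of the 4 was called higher (adjusted p = 0.0440).

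Several oxidase genes were near or below 0. Cox6b1, a subunit on the side where cytochrome c docks, was at 477 and 491 FPKM in Th0 and at 493 and 423 FPKM with dopamine (log2 difference −0.08, adjusted p = 0.696). Cox6c was at 361 and 421 FPKM in Th0 and at 404 and 356 FPKM with dopamine (−0.04, adjusted p = 0.881). Cox7b, on chromosome X from 106015700 to 106022450, was at 461 and 505 FPKM in Th0 and at 398 and 333 FPKM with dopamine. All of its dopamine values were below its Th0 values, and its log2 difference of −0.41 ± 0.13 (SE) did not pass (adjusted p = 0.114). It was called lower under the common sum (−0.66, adjusted p = 0.00805).

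The oxidase isoforms were almost all of the widely expressed kind. Cox4i2, the isoform known from lung, and the testis forms Cox7b2 and Cox8c were listed at 0 in all 4 libraries. The muscle forms Cox6a2 and Cox8b stayed at or below 0.293 and 0.856 FPKM, against at least 210 FPKM for Cox6a1 and at least 385 FPKM for Cox8a. Cox8a was at 392 and 385 FPKM in Th0 and at 608 and 460 FPKM with dopamine (0.44 ± 0.13, SE, adjusted p = 0.0908). Cox6b2, the testis form of Cox6b1, lay between 1.86 and 4.23 FPKM with opposite signs in the pairs. Cox7a1, the muscle form, read 3.21 and 4.24 FPKM in Th0 and 2.78 and 0.679 FPKM with dopamine (−0.90 ± 0.41, adjusted p = 0.215). Its relatives Cox7a2, at 189 and 184 FPKM in Th0 and 266 and 242 FPKM with dopamine, and Cox7a2l, a factor of respiratory supercomplexes, had log2 differences of 0.44 (adjusted p = 0.0507) and 0.33 (adjusted p = 0.147).

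Summed over genes, the 87 subunits made up 2.61% and 2.44% of all protein-coding FPKM in Th0 and 2.99% and 2.78% with dopamine. The sum itself was 1.34 times as high with dopamine in pair 2 and 1.17 times in pair 3, while the ratio of the shares was 1.14 in both pairs. For complex III the summed FPKM was 1.61 and 1.33 times as high, and the share 1.38 and 1.30 times. Complex I had ratios of summed FPKM of 1.34 and 1.17, complex II of 1.27 and 1.22, complex V of 1.29 and 1.20, and complex IV of 1.29 and 1.06. The share of complex IV was 1.11 and 1.04 times as high, and its mean log2 ratio of 0.23 became −0.03 under the common sum. The sums were not tested, since an exact permutation test of a single value cannot give a p under 0.333 with 2 libraries against 2. Pair 2 had the larger log2 difference for 68 of the 81 tested subunits and for 20 of the 27 that rose.

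**Figure D3:**
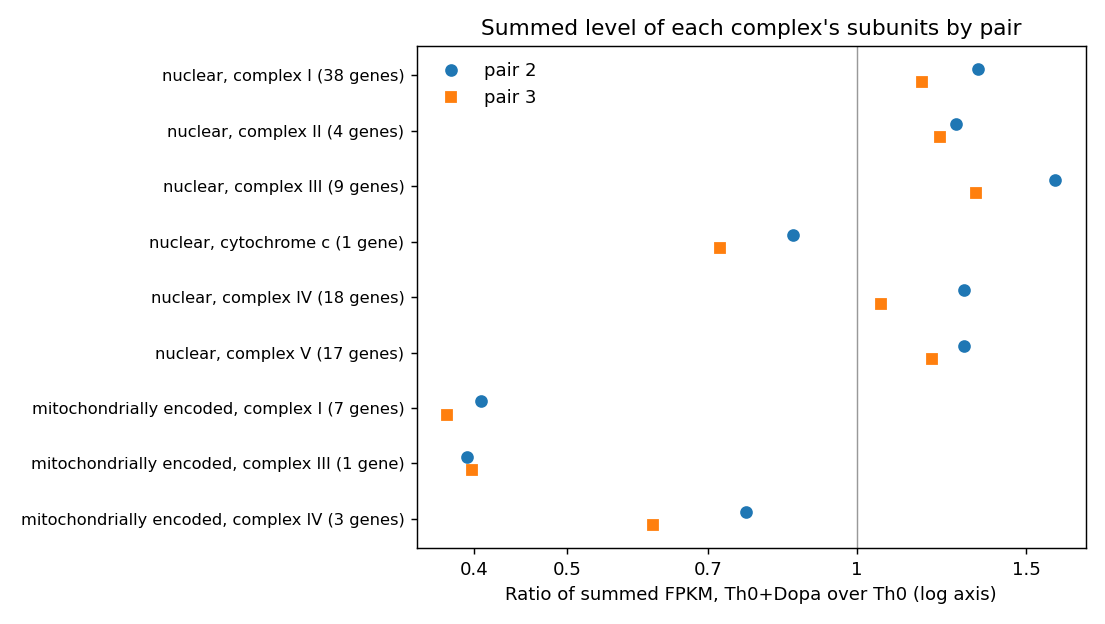
Ratio of summed FPKM, Th0+Dopa over Th0, on a log axis, for the nuclear subunits of each complex, for cytochrome c and for the mitochondrially encoded subunits of complexes I, III and IV; circles are pair 2 and squares pair 3. Nuclear complex III reaches 1.61 and 1.33, cytochrome c lies at 0.859 and 0.721 and mitochondrially encoded complex III at 0.394 and 0.397; nuclear complex IV falls to a log2 ratio of −0.03 under a common FPKM sum.

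The subunits encoded in mitochondrial DNA changed in the opposite direction. Of 13 such genes 12 were tested, 8 fell and none rose, against 4.39% lower and 6.28% higher of all genes tested. The median log2 difference of the 12 was −1.22. The partner of the nuclear complex III genes, mt-Cytb, which encodes cytochrome b, was at 1990 and 2872 FPKM in Th0 and at 783 and 1142 FPKM with dopamine (−1.34, adjusted p = 0.00377). Among complex I genes, mt-Nd4 was at 261 and 379 FPKM in Th0 and at 62.6 and 102 FPKM with dopamine (−1.96, adjusted p = 0.000827). The most abundant, mt-Co1 of complex IV, was at 9248 and 11742 FPKM in Th0 and at 7095 and 7214 FPKM with dopamine and did not pass (−0.54, adjusted p = 0.140), although it was called lower under the common sum (−0.80, adjusted p = 0.000537). Summed nuclear over summed mitochondrially encoded FPKM was 0.892 and 0.634 in Th0 and 1.91 and 1.44 with dopamine. Some of the 13 were listed far below mt-Co1, and their values are uncertain. Among them were mt-Co2 at no more than 5.67 FPKM, mt-Co3 at no more than 8.40 FPKM and mt-Atp6 at no more than 4.99 FPKM with 0 in Th0+Dopa 2. Both mt-Co3 and mt-Atp6 are counted in the 8 that fell. The changes of mitochondrial genes stood beside those of the macrophage and granulocyte markers above, and the part of one in the other was not tested.

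Assembly factors help to build the complexes without staying in them. Of 52 tested, 8 rose (15.4%, against 6.28% of all genes tested) and none fell, with a median log2 difference of 0.23. Of the 8, 6 serve complex IV, as do 23 of the 52. Sco2, a copper chaperone, was at 3.88 and 3.41 FPKM in Th0 and at 14.5 and 8.88 FPKM with dopamine (1.41 ± 0.21, SE, adjusted p = 0.0161). Cox17, which brings copper to Sco2, was at 82.4 and 89.2 FPKM in Th0 and at 157 and 128 FPKM with dopamine (0.72, adjusted p = 0.0287). Coa6, another factor of copper delivery, and Cox19 had log2 differences of 0.78 (adjusted p = 0.0289) and 0.77 (adjusted p = 0.0490). Cox18, which inserts a mitochondrially encoded subunit, and Ndufaf8, a complex I factor, had 0.70 (adjusted p = 0.0389) and 0.83 (adjusted p = 0.0348). The other 2 were Uqcc2 of complex III (0.61) and Cox14 (0.52). Sco2 alone of the 8 was called after scaling to a common FPKM sum, and Cox20, another complex IV factor, was called lower (−0.65, adjusted p = 0.0339).

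Regulators of respiratory genes did not move together. Of 21 such genes 19 were tested, 2 rose and none fell (10.5% higher, against 6.28% of all genes tested), while under the common sum none was called higher and 2, Gabpa and Yy1, were called lower. The median log2 difference was −0.04, and 2 were called lower when only protein-coding genes were tested. Esrra, a nuclear receptor that activates respiratory genes, was at 4.33 and 3.21 FPKM in Th0 and at 8.53 and 9.40 FPKM with dopamine (1.07 ± 0.21, SE, adjusted p = 0.0365). Polrmt, the mitochondrial RNA polymerase, was at 6.69 and 5.38 FPKM in Th0 and at 12.8 and 9.86 FPKM with dopamine (0.81, adjusted p = 0.0420). Neither was called under the common sum. Nrf1, whose motif is capitalized in the Uqcrc1 and Sdha promoters, was at 50.8 and 51.4 FPKM in Th0 and at 58.6 and 57.6 FPKM with dopamine (0.18, adjusted p = 0.335). Gabpa, of the ETS family, read 48.6 and 77.9 FPKM in Th0 and 39.6 and 43.1 FPKM with dopamine (−0.56, adjusted p = 0.0823; −0.81 and adjusted p = 0.0182 under the common sum), and overlaps Atp5j on the opposite strand. Yy1 read 64.1 and 68.9 FPKM in Th0 and 47.2 and 53.1 FPKM with dopamine (−0.40, adjusted p = 0.0741; −0.65 and adjusted p = 0.0292 under the common sum). Ppargc1a, the coactivator best known in muscle and brown fat, was at or below 0.0615 FPKM in all libraries.

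Around the ubiquinone pool, Dhodh, which makes pyrimidines and feeds electrons to ubiquinone, rose from 12.9 and 11.0 FPKM in Th0 to 26.7 and 16.8 FPKM with dopamine (0.78, adjusted p = 0.0427), a call that was lost under the common sum (0.54, adjusted p = 0.101) and with GC content and length corrected for (0.61, adjusted p = 0.0877). Sqor, which oxidizes sulfide, fell from 6.42 and 6.40 FPKM in Th0 to 3.05 and 1.52 FPKM with dopamine (−1.21, adjusted p = 0.0439). The other 5 of the 7 tested electron donors were not called. None of 13 genes of ubiquinone synthesis was called in limma, while 2 had an unadjusted p under 0.05, as had 3177 of the 11423 genes tested. Atpif1, the inhibitor of ATP synthase, was at 231 and 314 FPKM in Th0 and at 372 and 320 FPKM with dopamine (0.36, adjusted p = 0.237).

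Base composition ran alongside the differences. Across the 81 tested subunits the log2 difference and the mean GC content of a gene's transcripts had Pearson's r of 0.34 and Spearman's rho of 0.40, against 0.34 and 0.38 over 10148 protein-coding genes. These are descriptions across genes of the same 4 libraries, and genes are not independent replicates. In the 27 subunits of lowest GC content (up to 48.6%) 3 rose, in the middle 27 11 rose, and in the highest 27 (from 53.4%) 13 rose. Correcting each pair for GC content and length lowered the median log2 difference of the subunits from 0.37 to 0.22 and that of all genes from 0.03 to 0.01. After it 19 subunits were higher, 17 of them among the 27, and 1 was lower (Ndufv3), with 3.70% of all genes tested higher and 3.70% lower. The median by complex was then 0.54 for complex III, 0.37 for II, 0.25 for V, 0.22 for I and −0.00 for IV.

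**Figure D4:**
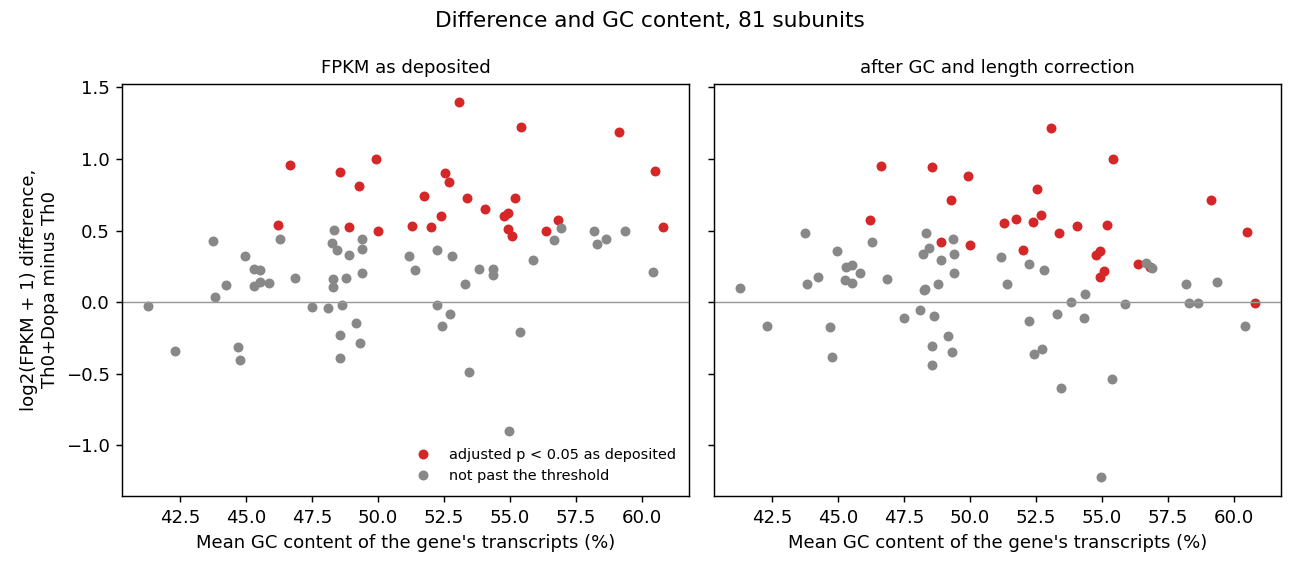
Difference in log2(FPKM + 1), Th0+Dopa minus Th0, against the mean GC content (%) of each of 81 subunits, with the deposited FPKM (left) and after correction for GC content and length (right); red points are the 27 called higher with the deposited values. Spearman's rho on the left is 0.40, and the median falls from 0.37 on the left to 0.22 on the right.

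Some values can be blurred by near-identical sequence. Pseudogene transcripts of at least 95% identity over at least 50% of their length and at least 150 bases were found for 23 of the 81 subunits. Of the 58 subunits without such a copy 20 rose, of the 19 with 1 or 2 copies 7 rose, and of the 4 with 3 or more (Atp5l with 8, Cycs, Atp5h and Uqcrb with 3 each) none rose. Reads from such copies and from the gene may have been shared between them, and their part in the low values of these 4 genes was not tested. In addition, 18 tested subunits overlap a tested gene, nearly always on the opposite strand, among them 5 that rose: Ndufb6 with Smim27, Ndufb11 with Rbm10, Ndufa2 with Tmco6, Ndufs3 with Kbtbd4 and Cox4i1 with Emc8 and Gm20388. The kit keeps strand, but whether counting used it was not given in the sources used here; these values are uncertain. Transcript length (Spearman's rho 0.01) and level (0.08) had little relation to the differences of the 81 subunits.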

How the data were processed

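RNA of 4 mouse libraries was measured by paired-end sequencing after ribosomal RNA and globin depletion with a stranded kit, per the labels' protocols. The authors deposited FPKM for 38282 Ensembl genes in 2 tables, libraries 2 and 3 apart. Tools in the submitters' processing notes are Cufflinks 2.2.1, STAR 2.4.2, Trimmomatic 0.35, bcl2fastq 1.8.4 and FastQC 0.10.1, with the mm10 build. Annotation release, normalization options and use of strand were not given in the sources used here. The tables hold no counts, so no counting interval is given, and no unassigned columns were present.

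GENCODE M21 (mm10) named 36423 of the genes and gave coordinates, GC content and length. Genes that averaged at least 1 FPKM were tested with limma 3.58.1 in R 4.3.3 on log2(FPKM + 1) of the deposited values: lmFit with the table as a block, then eBayes with trend, two-sided, Benjamini-Hochberg over 11423 genes, called at an adjusted p under 0.05. Estimates are means of the 2 within-table differences, and the log2 scale understates changes of low genes. Residual degrees of freedom are 1, and the prior adds 4.70. When this comparison was tested on simulated data (20 runs of 11423 genes with 200 changed), 41.4% of 2-fold and 85.5% of 4-fold changes were recovered, and 7.59% of calls were false. Variances there were drawn from the fitted prior with independent noise, so these shares apply only where the data follow that model.

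The members and gene lists were chosen with earlier results of these data known. Named members are all that were called, the 2 highest and 2 lowest of each complex, complex II, Cyc1, Cycs, isoform sets, and up to 6 called genes of each list of assembly factors, regulators, mitochondrially encoded subunits, ubiquinone synthesis and other electron donors. Further members and list genes, and the GC, pseudogene and overlap comparisons, were chosen after their values were seen. So were the promoters shown, Usmg5 and the genes near Uqcrq. Pseudogene copies were found with blastn 2.17.0. Alternatives were pseudocounts of 0.1 and 5, other filters, scaling to a common FPKM sum (with and without small RNA) or by the median of ratios, no variance trend, a robust fit, no block, a loess correction for GC content and length (span 0.3), and each library left out, in fits with no block on values scaled by the median of ratios, where lone libraries were assumed to vary like the other group.

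The block is for the table: libraries 2 and 3 stand in different files, and whether these were normalized together was not given in the sources used here.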

Additional observations from a re-analysis of the deposited data

How the results depend on the processing

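Values are counts of calls with the deposited FPKM against those under each alternative. Scaling to a common FPKM sum gave 14 subunits higher and 7 lower: 5 higher and 1 lower in complex I, 0 and 1 in II, 1 and 1 in IV, 2 and 3 in V. Assembly factors had 1 higher and 1 lower, regulators 0 and 2, and ubiquinone genes and other donors 0 higher. Summed levels (mean log2 ratio) became 0.067 for all members, 0.067 for complex I, 0.060 for II, 0.29 for III, −0.60 for cytochrome c, −0.027 for IV, 0.060 for V and −1.07 for mitochondrially encoded subunits. The log2 difference of Sdhd reversed to −0.048. Without small RNA in that sum, 16 members were higher and 5 lower: 5 and 1 in complex I, 1 higher in II, 2 and 1 in IV, 2 and 2 in V, with assembly factors at 2 and 1, regulators at 0 and 2, and ubiquinone genes and other donors at 0 higher. The sums were then 0.12, 0.12, 0.11, 0.34, −0.55, 0.024, 0.11 and −1.02 in the same order. Over all genes, 376 were higher and 1064 lower under the common sum (26.1% of calls higher, against 58.9% of 717 and 501), and 393 and 892 without small RNA (30.6% higher).

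Samples with the same number did not deviate together (r = 0.0869 over 11423 genes), and no label ties a number to an animal, batch or day. With no replicate block, 7 members, against 27, were called higher: 1 in complex I, 0 in II, 4 in III, 0 in IV and 2 in V. Assembly factors had 3 higher, regulators 0, mitochondrially encoded subunits 3 lower, and ubiquinone genes and other donors 0 in either direction; all genes had 256 higher and 240 lower. Without the variance trend, 0 members were higher, so 0 in each of complexes I, II, III, IV and V, while 34 had an unadjusted p under 0.05; assembly factors and regulators had 0 higher, mitochondrially encoded subunits 4 lower, ubiquinone genes and other donors 0 in either direction, and all genes 106 and 150. Fits with any 1 library left out kept a single library in 1 group, so only differences are given for them. With 1 library left out, log2 differences ranged from −0.15 (without Th0+Dopa 2) to 0.072 (without Th0+Dopa 3) for Uqcrh, from −0.14 (without Th0 2) to 0.036 (without Th0 3) for Uqcrb, from −0.23 (without Th0+Dopa 2) to 0.018 (without Th0+Dopa 3) for Cox6b1, and from −0.67 (without Th0 3) to 0.21 (without Th0 2) for Cox6b2.

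With the replicate block and the GC and length correction, 1 member was lower (1 in complex I), and 2 in complex IV, 3 in V, 3 assembly factors, 0 regulators and 0 ubiquinone genes or donors were higher. Uqcrb became 0.10, Cox6a1 −0.0078 and Cox8a −0.0026. With no filter, complex I had 5 higher, IV 2 and V 3, with 3 assembly factors, 0 regulators, and 0 ubiquinone genes or donors in either direction. With protein-coding genes only, 3 members were lower (1 each in I, II and IV), complex I had 15 higher, regulators 2 lower and ubiquinone genes and donors 2 higher; all genes had 1077 higher and 907 lower. A pseudocount of 0.1 gave 1 member lower (1 in complex I) and 2 ubiquinone genes or donors higher; a pseudocount of 5 gave 1 regulator and 0 ubiquinone genes or donors higher; a mean FPKM of at least 5 gave 2 higher and 0 lower of the latter. The 6 calls of complex III became 4 without the replicate block and 0 without the variance trend. They stayed at 6 under the other alternatives that kept all libraries. Fewer genes tested, or fewer samples, follow from the filters and left-out libraries themselves; for the other alternatives the cause was not tested.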

Other observations

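Uqcrq, the subunit gene with the largest difference, lies 172 kb from Il4 on chromosome 11. Il4, which encodes the T helper 2 cytokine interleukin 4, was at 85.5 and 88.5 FPKM in Th0 and at 262 and 219 FPKM with dopamine (log2 difference 1.45, adjusted p = 0.00298, limma). Between them, Kif3a, a kinesin motor, was at 10.001 and 10.066 FPKM in Th0 and at 20.8 and 20.1 FPKM with dopamine (0.96, adjusted p = 0.0161). Sept8, a septin, was at 21.9 and 15.9 FPKM in Th0 and at 31.0 and 25.7 FPKM with dopamine (0.57, adjusted p = 0.0512). The remaining protein-coding genes between Uqcrq and Il4 were listed at no more than 0.244 FPKM. These genes were looked at after the value of Uqcrq was seen.

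Usmg5, another ATP synthase subunit whose symbol lies outside the rule, was at 379 and 429 FPKM in Th0 and at 341 and 349 FPKM with dopamine, and did not pass (−0.22, adjusted p = 0.233). Like Atp5l, Atp5j and Atp5h, it read lower with dopamine in both pairs and was called lower after scaling to a common FPKM sum (−0.48, adjusted p = 0.0201).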
